A study of Mus musculus with 11 samples.

Results

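Cytosolic ribosomal protein genes encode the proteins of the ribosome that translates nuclear messenger RNA. The 80 genes described here are those annotated as protein-coding whose symbol is Rpl or Rps with a number and, for some, a paralog suffix, or is Rplp0, Rplp1, Rplp2 or Rpsa. They are 80 of 26283 genes in the deposited tables and of the 16314 annotated as protein-coding. Of the 80 genes, 48 have symbols that start with Rpl (large subunit) and 32 with Rps (small subunit). *Rpl36*, *Rpl38*, *Rpl3l* and *Rpl10l* have no entry in the tables, so that of these 4 only pseudogenes of *Rpl36* and *Rpl38* enter the sums of copies below. Another 4 symbols that fit the pattern (*Rps3a2*, *Rps3a3*, *Rps4l* and *Rps12l1*) are annotated there as pseudogenes and were not counted as members.

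The data are bulk RNA sequencing of 11 mammary tumors from 18-week-old C57BL/6 mice that carry the MMTV-PyMT oncogene, a viral middle T antigen. The groups were PyMT *Pcbp1*–/– (n = 6, *Pcbp1* fl/fl with MMTV-Cre) and PyMT *Pcbp1*+/+ (n = 5, *Pcbp1* wt/wt), and the controls carry PyMT and Cre as well. The MMTV promoter acts in mammary epithelium, so the other cells of a knockout tumor keep *Pcbp1*, and in bulk RNA fewer cells of a type and less RNA per cell cannot be told apart. *Pcbp1* encodes an RNA-binding protein that binds C-rich stretches, and the comparison asks which transcripts differ between tumors with and without it.

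Each ribosome holds a small 40S subunit, which decodes the messenger RNA, and a large 60S subunit, which forms the peptide bond, and nearly every ribosomal protein is present once in it. The messenger RNAs of these genes are short, abundant and begin with a C followed by pyrimidines, a terminal oligopyrimidine tract through which mTOR and LARP1 control their translation, and growing and milk-secreting mammary cells need many ribosomes. Because these messengers are abundant in the germ line, they have also left many processed pseudogenes, which are copies without introns made by reverse transcription and inserted elsewhere in the genome.

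The estimated counts summed to between 11239900 and 14092200 in PyMT *Pcbp1*–/– tumors, with a median of 13135800. The sums were 10945800, 10543200, 11411800, 10975700 and 11198200 in PyMT *Pcbp1*+/+ replicates 1 to 5, the order used for this group throughout. CPM values are counts divided by the total of the tumor and scaled to a common total. A count of 0 allows up to 3 counts, which came to between 0.213 and 0.285 CPM, and such limits and the intervals of shares cover counting error only.

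The targeted gene was checked first. *Pcbp1* (ENSMUSG00000051695, chr6:86524492-86526321, GRCm38, minus strand) had a lowest value of 15.4, a median of 20.9 and a highest value of 33.6 CPM in PyMT *Pcbp1*–/– tumors. It had 268, 271, 225, 220 and 259 CPM in PyMT *Pcbp1*+/+ tumors, so that all 6 knockout tumors lay below all 5 controls. The log2 fold change of knockout over wild-type was -3.43 (SE, the standard error, 0.19, edgeR adjusted p = 4.72e-06).

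Counts of the 80 genes made up a small share of each library. Their summed level was 3867 ± 260 CPM (SD, n = 6) in PyMT *Pcbp1*–/– and 3659 ± 605 CPM (SD, n = 5) in the controls. The knockout tumors ran from 3470 over a median of 3932 to 4127 CPM, and the controls had 3540, 4658, 3064, 3350 and 3686 CPM. Both the highest and the lowest tumor were controls, so the groups overlapped and the difference between their means was smaller than the spread within either group. In percent of all counts, replicate 3 of PyMT *Pcbp1*+/+ had 0.306% (95% Wilson interval 0.303% to 0.310%) and replicate 2 had 0.466% (0.462% to 0.470%). The ratio of the group means was 1.06. It was 1.02 without replicate 3 and 1.13 without replicate 2 of PyMT *Pcbp1*+/+, so these libraries set the size of the difference.

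The libraries also differed in what else they held. A single gene annotated as a lincRNA, RP23-81C12.1 (chr17:39843013-39846341, GRCm38, plus strand), accounted for 9.04% to 17.4% of a library. Structural RNA genes accounted for 13.4% to 24.3%. Without the counts of the first, the ratio of ribosomal protein sums between the groups was 1.07, and it was also 1.07 without the structural RNAs and 1.08 as a share of protein-coding counts.

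**Figure D1:**
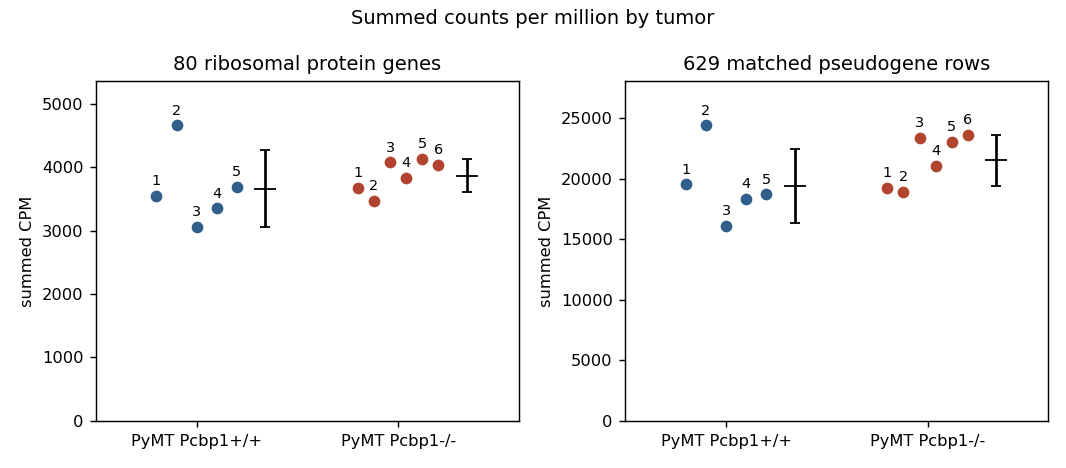
Summed CPM of the 80 ribosomal protein genes (left) and of the 629 pseudogenes matched by sequence to ribosomal protein genes (right) in each tumor, with points numbered by replicate and bars for mean ± SD of the 6 PyMT *Pcbp1*–/– tumors and the 5 PyMT *Pcbp1*+/+ tumors. Replicates 2 and 3 of PyMT *Pcbp1*+/+ are the highest and the lowest tumor in both panels.

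Most counts with ribosomal protein sequence were not assigned to these genes. By name, 136 pseudogenes carry the symbol of a ribosomal protein gene followed by -ps. Together they had a lowest value of 6838, a median of 8075 and a highest value of 8616 CPM in PyMT *Pcbp1*–/– tumors, and 7128, 9005, 5865, 6680 and 6832 CPM in PyMT *Pcbp1*+/+ tumors. They held on average 66.5% of the counts of the genes and these copies together, between 65.0% and 68.0% in each tumor.

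Names miss many copies, so pseudogene transcripts were also compared with the coding sequences of ribosomal protein genes in the reference. A match needed at least 80% identity over at least 50% of the coding sequence, and 629 pseudogenes met this, 622 as copies of the 80 genes and 7 as copies of *Rpl36* (172 CPM on average) or *Rpl38* (33.7 CPM). Their summed level was 18885, 22018 and 23575 CPM (lowest, median and highest) in PyMT *Pcbp1*–/– tumors and 19514, 24391, 16066, 18302 and 18693 CPM in PyMT *Pcbp1*+/+ tumors. The groups overlapped, and the order of the extreme controls was that of the genes themselves. These copies held 84.7% ± 0.494 (SD, n = 6) of the counts of genes plus copies in PyMT *Pcbp1*–/– and 84.1% ± 0.457 (SD, n = 5) in PyMT *Pcbp1*+/+ tumors, with a range of 83.5% to 85.4% over the 11 tumors. With the 622 copies of the 80 genes alone the mean share was 84.3%. The share was thus nearly the same in every tumor while the summed levels differed by a ratio of 1.52 between the highest and the lowest tumor.

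Processed pseudogenes made up 604 of the 629 matches and 18224 CPM of their mean level of 20552 CPM. Another 23 were transcribed processed pseudogenes with 2327 CPM. Nearly all of this level lay on close copies, since the 386 pseudogenes with at least 95% identity held 98.6% of it, and 20 matched their parent gene at 100%. The 10 largest held 23.3%, so the counts were spread over many copies. These matches were 28.6% to 33.8% of all pseudogene counts in a tumor.

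Some copies are annotated as protein-coding genes and are not in these sums. There were 57 of them with 2826 CPM, 1 of which (*Sumf1*, 21.5 CPM) holds a copy of *Rpl36*. Another 8 copies, with 192 CPM, have other annotations such as lincRNA and are in none of the sums. *Gm10073*, a copy of *Rplp1*, had 424 CPM, *Wdr89*, whose transcript holds an *Rplp2* copy, had 353 CPM, and *Rps27rt*, a copy of *Rps27*, had 199 CPM. For the 80 genes with these included, 86.0% of the counts of genes and copies lay on copies.

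**Figure D2:**
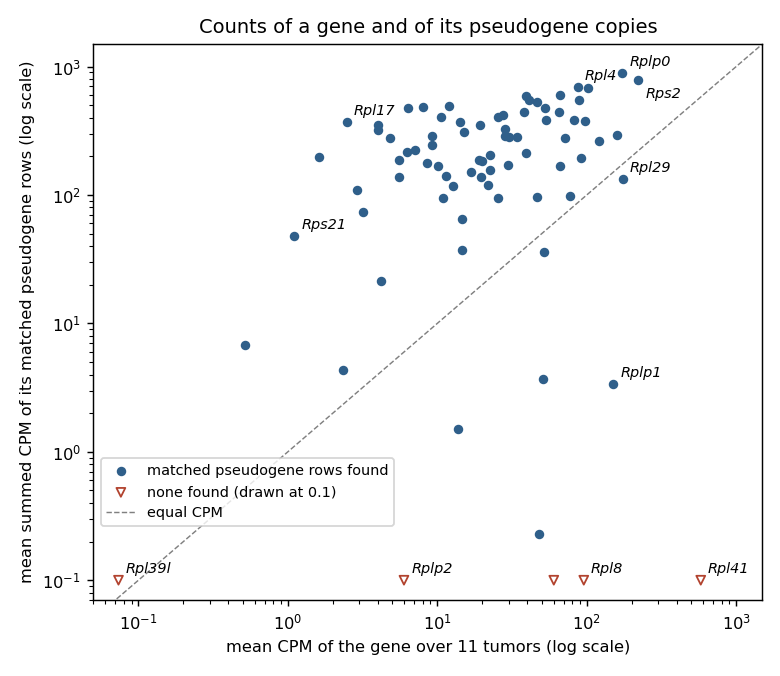
Mean CPM over 11 tumors of each ribosomal protein gene (horizontal, log scale) against the summed mean CPM of the pseudogenes matched to it (vertical, log scale), with triangles for genes without a match and a dashed line where both are equal. Most genes lie above the line: 69 of 80 had more counts on matched pseudogenes than on the gene.

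Families of gene and copies differed widely. The share of counts on matched pseudogenes had a median of 90.01% over the 80 genes, with over 50% in 69 of them, over 90% in 40 and under 10% in 9. It was highest for *Rpl17* (99.3%) and *Rpl24* (99.2%), both of the large subunit, where the gene itself had a mean of 2.48 and 1.62 CPM. By name alone the shares were largest for *Rpl17* (99.3%), *Rpl19* (98.6%), *Rps23* (98.3%), *Rpl23a* (97.9%) and *Rps10* (96.4%). *Rpl8*, *Rpl39*, *Rpl39l*, *Rpl41* and *Rplp2* had no matched pseudogene. The low shares of *Rplp1* (2.18%), *Rpl35* (9.92%) and *Rplp2* leave out protein-coding copies, with which they came to 73.9%, 96.2% and 98.3%.

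The number of copies was not a close guide to the share. *Rpl7a*, of the large subunit, had the most matched pseudogenes, 57, against a median of 4 per gene. Across the 80 genes, which are not independent replicates, Spearman's rho between the share and the number of copies was 0.37. It was -0.11 between the share and the mean exon length and -0.07 for the longest exon. In the 20 genes with the shortest mean exons the median share was 90.2%, and in the 20 with the longest it was 91.7%.

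By subunit, the 32 genes of the 40S subunit had a summed mean of 1258 CPM and 86.7% of their counts on matched pseudogenes. The 45 genes of the 60S subunit outside the P-stalk had 2184 CPM and 83.8%. The P-stalk, the flexible arm of the 60S subunit that recruits elongation factors, had 330 CPM and 73.1%, nearly all of it on copies of *Rplp0*.

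Sequences over exon junctions show how alike gene and copy are where a spliced messenger differs from the gene's own genomic sequence. In each window of 60 bases, taken from coding sequence of the reference transcripts on the strand of the gene, capitals in the gene mark the 2 bases that flank the junction, and capitals in the copy mark bases that differ from the gene. Positions are counted from 1 at the window's 5′ end. The copies shown are the 3 largest matched ones by CPM, and their places are given on GRCm38.

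*Rpl4* encodes a protein lining the exit tunnel of the 60S subunit and has 10 exons, and the window covers the junction after exon 6. Its copy RP23-278M14.1 (chr1:143093347-143094616, minus strand, 690 CPM) differs at C20G and G31C.
Rpl4: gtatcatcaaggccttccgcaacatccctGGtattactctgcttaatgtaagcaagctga
RP23-278M14.1: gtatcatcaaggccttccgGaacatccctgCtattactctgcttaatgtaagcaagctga

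*Rplp0* encodes the base of the P-stalk and has 7 exons, and the window covers the junction after exon 4. Its copy RP23-336M12.2 (chr8:102864845-102865798, minus strand, 641 CPM) differs at A12T.
Rplp0: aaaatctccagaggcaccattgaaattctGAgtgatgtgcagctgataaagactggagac
RP23-336M12.2: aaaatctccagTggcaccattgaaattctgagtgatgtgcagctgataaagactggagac

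*Rpl3* encodes a protein next to the peptidyl transferase centre and has 10 exons, and the window covers the junction after exon 5. Its copy Rpl3-ps1 (chrX:13202571-13203780, plus strand, 572 CPM) has the same letters throughout.
Rpl3: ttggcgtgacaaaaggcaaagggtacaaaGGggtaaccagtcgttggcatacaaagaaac
Rpl3-ps1: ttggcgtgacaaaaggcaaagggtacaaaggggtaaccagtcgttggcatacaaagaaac

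In its window a read from the spliced messenger of *Rpl3* has the letters of the copy as well as of the gene. Levels and fold changes of a ribosomal protein gene with close copies are therefore uncertain, and how reads were divided among gene and copies was not tested. The matched copies held over 50% of the counts also in *Rpl4*, *Rplp0* and *Rpl3*, with 88.8%, 83.8% and 86.9%.

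Levels of different genes were compared as mean CPM per kilobase of reference transcript. Over the 78 genes that passed the filter on low counts the median was 22.6, with 1.02 for *Rpl37* at the low end and 1035 for *Rpl41* at the high end. *Rpl41*, which encodes the smallest ribosomal protein, was followed by *Rplp1* (275), *Rps2* (201), *Rplp0* (127) and *Rpl22* (122). The 90th percentile was 24.6 times the 10th. With matched pseudogene counts added the ratio was 13.5 and the median 245, so the genes were closer in level as families. The low value of *Rpl37* also rests on a long reference transcript of 6111 bases. Subunit proteins are made in near equal number per ribosome, and these levels per length were far from equal with and without the copies.

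Genotype was tested for each gene with edgeR on all genes together. Of the 80 genes, 78 passed the filter on low counts, and *Rpl39l* and *Rps29* did not. None of the 78 was lower at an adjusted p under 0.05 (all genes: 1.66%) and none was higher (all genes: 0.608%), while 8 had an unadjusted p under 0.05 (all genes: 18.7%). DESeq2 called 1 of the genes, *Rpl15* (all genes: 6.34%), limma-voom with sample quality weights called 8 (all genes: 11.2%) and limma on log2(CPM + 1) called 0 (all genes: 2.21%). The 8 called by limma-voom, *Rps9*, *Rpl15*, *Rps26*, *Rpl14*, *Rpl28*, *Rpl4*, *Rps16* and *Rpl41*, were all higher in the knockout, which is 10.3% of the 78 against 5.03% of all genes called higher by limma-voom. Whether that share differs from that of all genes was not tested. Of the 78 genes, 1, *Rpl15*, had CPM that did not overlap between the groups (all genes: 3.29%).

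The size of the typical fold change depended on the tool and on single tumors. The median from edgeR was 0.04 on the log2 scale, against -0.0001 over all 19232 genes tested, with 41 genes above 0 and 37 below. Limma-voom, which weighs tumors by quality, gave a median of 0.18 with 57 of 78 above 0, against -0.0003 over all genes. The 78 genes are not independent replicates. With edgeR their median was -0.01 without replicate 3 of PyMT *Pcbp1*+/+ and 0.15 without replicate 2, where 1 gene (*Rpl15*) passed the threshold. In that fit without replicate 2, 354 of all 19492 genes tested were called lower and 187 higher. With edgeR on all tumors, the lowest fold change of the 78 genes was -0.61 and the highest 0.42. The 95% intervals had a median width of 0.61, and 77 of the 78 lay within -1 and 1, so a difference of 2-fold or more lay outside the interval in 77 genes.

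**Figure D3:**
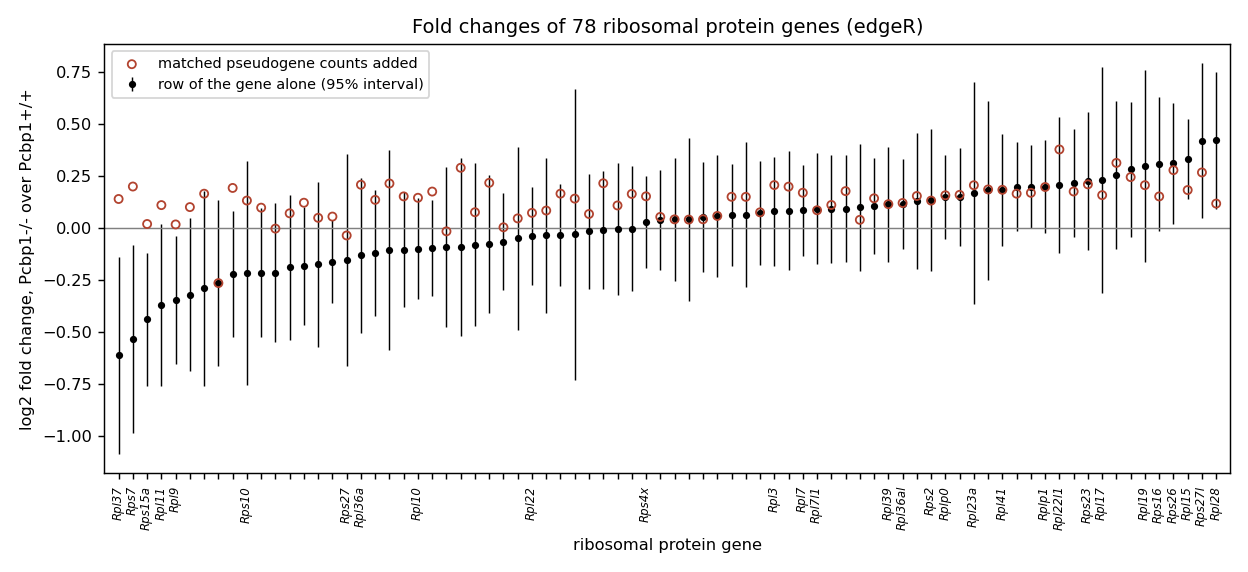
Log2 fold change of PyMT *Pcbp1*–/– over PyMT *Pcbp1*+/+ for the 78 genes tested, with black points and 95% intervals for the gene alone and open circles after the counts of matched pseudogenes were added; only genes picked for closer description are labelled. The black points run from -0.61 to 0.42, and the open circles lie closer together, from -0.27 to 0.38.

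In the large subunit, *Rpl15* came nearest to the threshold. It encodes a protein needed for the processing of 60S precursors (ENSMUSG00000012405, chr14:18267823-18271391, GRCm38, minus strand). Its level was 73.9, 78.6 and 85.3 CPM (lowest, median and highest) in PyMT *Pcbp1*–/– tumors and 69.9, 72.0, 55.7, 55.5 and 62.0 CPM in PyMT *Pcbp1*+/+ tumors. All 6 knockout tumors lay above all 5 controls. The log2 fold change was 0.33 (SE 0.09, 95% interval 0.14 to 0.52), with an adjusted p of 0.0763 from edgeR. The adjusted p was 0.00961 with DESeq2, 0.0135 with limma-voom and 0.0456 without replicate 2 of PyMT *Pcbp1*+/+, and over all 22 alternatives it ran from 0.00961 to 0.374. With its 13 matched pseudogenes added, which hold 79.5% of the family's counts, the log2 fold change was 0.18.

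*Rpl28*, another 60S gene, had 7.81, 10.7 and 12.5 CPM (lowest, median and highest) in PyMT *Pcbp1*–/– tumors and 8.13, 10.1, 7.01, 6.74 and 7.06 CPM in controls. Replicates 1 and 2 of the controls lay within the knockout range, and the log2 fold change of 0.42 had an adjusted p of 0.165 from edgeR. Its copies held 96.9% of the family's counts, and with them the fold change was 0.12.

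*Rpl37*, which encodes a zinc-binding 60S protein (chr15:5116645-5119140, GRCm38, plus strand), had the lowest fold change. Its level was 3.48, 5.40 and 6.00 CPM in PyMT *Pcbp1*–/– tumors and 7.22, 11.8, 5.96, 5.56 and 7.95 CPM in controls. Control replicates 3 and 4 lay within the knockout range. The log2 fold change was -0.61 (95% interval -1.09 to -0.14, edgeR adjusted p = 0.156). Matched pseudogenes had 217 CPM, 97.2% of the family, and the fold change of gene and copies together was 0.14.

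*Rpl11* encodes a 60S protein that binds MDM2 when it is free of the ribosome. It had 5.39, 6.20 and 7.95 CPM in knockout tumors and 8.22, 11.7, 6.31, 5.92 and 8.66 CPM in controls, with controls 3 and 4 inside the knockout range. The log2 fold change was -0.37 (edgeR adjusted p = 0.288), and 0.11 with the copies. *Rpl9*, a 60S gene, had 12.5, 14.7 and 17.1 CPM in knockout tumors and 20.6, 26.0, 15.3, 18.04 and 14.8 CPM in controls, where controls 3 and 5 overlapped the knockout range. Its log2 fold change was -0.35 (edgeR adjusted p = 0.210), and 0.02 with the copies.

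In the small subunit, *Rps26*, which lies at the messenger exit channel, had 26.1, 32.1 and 34.9 CPM in PyMT *Pcbp1*–/– tumors and 24.7, 33.0, 17.5, 24.9 and 26.4 CPM in controls. Controls 2 and 5 overlapped the knockout range, and the log2 fold change was 0.31 (edgeR adjusted p = 0.242). *Rps16*, a 40S gene, had 14.2, 16.0 and 19.1 CPM in knockout tumors and 15.0, 18.02, 10.2, 14.6 and 9.29 CPM in controls, with controls 1, 2 and 4 inside the knockout range. Its log2 fold change was 0.30 (edgeR adjusted p = 0.293). With the copies these fold changes were 0.28 and 0.15.

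*Rps7*, which encodes a 40S protein that can also bind MDM2, had 2.40, 3.23 and 4.19 CPM in knockout tumors and 5.02, 7.30, 3.86, 3.74 and 4.38 CPM in controls. Controls 3 and 4 overlapped the knockout range. Its log2 fold change was -0.54 (edgeR adjusted p = 0.193) and 0.20 with the copies, which held 98.7% of the family's counts. *Rps15a*, a 40S gene, had 17.8, 18.7 and 22.0 CPM in knockout tumors and 26.7, 38.8, 18.4, 24.5 and 22.8 CPM in controls, of which only control 3 lay inside the knockout range. Its log2 fold change was -0.44 (edgeR adjusted p = 0.136), and 0.02 with the copies.

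The direction of these lower genes thus depended on the copies. The 5 with the lowest fold changes, *Rpl37*, *Rps7*, *Rps15a*, *Rpl11* and *Rpl9*, all had a fold change above 0 once matched pseudogenes were added, an alternative chosen after seeing the data. In that fit 79 of the 80 genes could be tested, and 75 had a log2 fold change above 0, while *Rps24*, *Rplp2*, *Rpl37a* and *Rps27* lay below. Copies annotated as protein-coding were not added, so *Rplp2* gained nothing with 353 CPM left on *Wdr89*, *Rps27* gained 4.32 CPM with 201 CPM left out, and *Rpl9* gained 152 CPM with 164 CPM left out. The median of the 79 was 0.14, against -0.002 over all 18884 genes tested, of which 49.8% lay above 0. The families are not independent replicates, since they share the same tumors. For the genes alone, the median log2 difference from the control mean was 0.37 in replicate 2 and -0.24 in replicate 3 of PyMT *Pcbp1*+/+. EdgeR called 0 of the 79 families (all genes: 2.35%), and the smallest adjusted p was 0.189. At an unadjusted p under 0.05 in the same fit there were 3 families, *Rps14*, *Rpl22l1* and *Rpl13a* (all genes: 18.9%). Other tools and other scalings were not run on these merged counts. The ratio of the summed levels of genes plus matched pseudogenes was 1.10, and it ran from 1.06 without replicate 3 to 1.18 without replicate 2 of PyMT *Pcbp1*+/+.

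By subunit, the median log2 fold change was 0.04 in the 31 tested 40S genes and 0.02 in the 44 tested 60S genes outside the P-stalk. With the copies the medians were 0.15 and 0.14, and all 32 of the 40S genes, *Rps29* included, could be tested. Whether the subunits differ was not tested.

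The matched pseudogenes themselves were tested where counts allowed. Of 355 tested, edgeR called 0 lower (all genes: 1.66%) and 1 higher (all genes: 0.608%), and 28 (7.89%, all genes: 18.7%) had an unadjusted p under 0.05, 20 of them higher. DESeq2 called 0 lower and 1 higher (0.282%, all genes: 6.34%), and limma on log2(CPM + 1) called 0 (all genes: 2.21%). Limma-voom called 3 lower (0.845%, all genes: 6.19%) and 40 higher (11.3%, all genes: 5.03%), in both directions 12.1% against 11.2% of all genes. Their median log2 fold change was 0.13, and 72.1% lay above 0, but these copies are not independent replicates either. The copy that passed was *Rps3a3*, named here because it was the only one to pass, and so chosen after its values were seen. It is a processed pseudogene of *Rps3a1* (chr13:108670603-108671397, GRCm38, plus strand) with 99% identity.

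*Rps3a3* fell into 2 levels among the knockout tumors. Replicates 1 to 4 of PyMT *Pcbp1*–/– had 118, 127, 132 and 128 CPM and replicates 5 and 6 had 51.0 and 60.5 CPM. The controls had 50.1, 53.7, 48.5, 53.6 and 49.4 CPM, so that 5 of 6 knockout tumors lay above all controls, replicate 6 by a small distance, and replicate 5 lay among them. The log2 fold change was 1.00 (SE 0.23, edgeR adjusted p = 0.0468). The adjusted p was above 0.05 when any of the 9 tumors other than replicates 5 and 6 of PyMT *Pcbp1*–/– was left out, between 0.0626 and 0.106. Over the 20 alternatives it was under 0.05 in 7 and ranged from 0.00172 to 0.106.

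The parent gene and, among the copies above 2.20 CPM, 1 other copy had the opposite pattern in the same tumors. Both were chosen after their values were seen. *Rps3a1*, a 40S gene, had 29.5, 40.04, 34.2 and 29.2 CPM in replicates 1 to 4 of PyMT *Pcbp1*–/–, 59.3 and 62.1 CPM in replicates 5 and 6, and 54.5, 64.2, 41.8, 46.8 and 53.2 CPM in controls. Its copy RP24-447D19.3 (chr8:11683459-11684243, GRCm38, minus strand) had 24.9, 31.2, 27.5 and 25.2 CPM in the first 4 knockout tumors, 48.3 and 45.5 CPM in the other 2, and 41.3, 51.7, 35.9, 40.4 and 43.0 CPM in controls. *Rps3a1* has 7 matched pseudogenes, not all of which are named here. Of the other copies, 3 with higher counts had no such gap between these tumors, and RP23-43M12.2, with at most 2.20 CPM, was higher in replicates 5 and 6 as well. *Rps3a2* had 274, 340, 332 and 313 CPM in knockout replicates 1 to 4 and 341 and 376 CPM in replicates 5 and 6, RP24-490A22.9 had 50.5, 55.5, 65.5 and 58.1 against 51.1 and 57.1 CPM, and RP23-14N22.2 had 32.7, 35.7, 42.4 and 39.8 against 37.8 and 44.4 CPM. For *Rps3a1* and RP24-447D19.3 the log2 fold changes were -0.29 and -0.33 (edgeR adjusted p = 0.494 and 0.389), and that of *Rps3a1* with all its matched pseudogenes added was 0.16. Whether *Rps3a3* has more transcripts in these tumors, or reads of the family were divided in another way there, was not tested.

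In the P-stalk, *Rplp0* had 173, 178 and 200 CPM in PyMT *Pcbp1*–/– tumors and 154, 199, 146, 158 and 161 CPM in controls, with control 2 inside the knockout range and the other controls below it. *Rplp1*, one of the acidic proteins of the stalk, had 130, 165 and 178 CPM in knockout tumors and 141, 157, 128, 135 and 136 CPM in controls, which overlapped. Their log2 fold changes were 0.15 and 0.20 (edgeR adjusted p = 0.421 and 0.325). *Rplp2* encodes the partner of the *Rplp1* protein in the stalk, and its own log2 fold change was -0.27.

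Among the other genes with high levels per length, *Rpl41* had 539, 620 and 684 CPM in PyMT *Pcbp1*–/– tumors and 508, 709, 443, 500 and 543 CPM in controls. The *Rpl41* protein bridges the subunits, and its gene has no matched pseudogene, although RP23-4P23.3, annotated as a lincRNA, holds a partial copy and had 167 CPM. For *Rpl41* the log2 fold change was 0.18 (edgeR adjusted p = 0.463). *Rps2*, at the messenger entry of the 40S subunit, had 191, 226 and 279 CPM in knockout tumors and 190, 262, 166, 178 and 252 CPM in controls, with a log2 fold change of 0.13. In both genes control 2 was the highest control and control 3 the lowest, and the groups overlapped.

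Genes with the largest shares on named copies carried few counts of their own. The log2 fold changes were 0.23 for *Rpl17*, 0.30 for *Rpl19*, 0.23 for *Rps23*, 0.17 for *Rpl23a* and -0.22 for *Rps10*, and the smallest edgeR adjusted p among them was 0.455. *Rpl17*, *Rpl19* and *Rpl23a* belong to the large subunit around the exit tunnel, and *Rps23* and *Rps10* to the small subunit. *Rps10* had 6.42, 9.11 and 9.65 CPM in PyMT *Pcbp1*–/– tumors and 9.23, 15.2, 7.45, 5.10 and 12.5 CPM in controls, whose range enclosed that of the knockout.

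Some ribosomal protein genes have paralogs, and some of these paralogs, but not all, can take their place in the ribosome. For 4 pairs with both genes tested, the log2 ratio of paralog to gene was compared between the groups with a two-sided exact permutation test. No pair passed the threshold after adjustment over the 4 pairs. The difference, knockout minus wild-type, was 0.01 for *Rpl7l1* to *Rpl7* (exact p = 0.944), 0.27 for *Rpl22l1* to *Rpl22* (exact p = 0.247, adjusted 0.329) and 0.24 for *Rpl36al* to *Rpl36a* (exact p = 0.113, adjusted 0.225). It was largest for *Rps27l* to *Rps27*, at 0.55 (exact permutation p = 0.0476, adjusted 0.190).

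*Rps27l*, a p53 target whose protein can replace that of *Rps27* in the 40S subunit, had 3.00, 5.15 and 5.54 CPM in PyMT *Pcbp1*–/– tumors and 3.56, 3.41, 3.42, 3.37 and 3.93 CPM in controls. Replicate 4 of the knockout lay below all controls and the other 5 above them. Its log2 fold change was 0.42 (edgeR adjusted p = 0.218). *Rps27* had 1.33, 2.41 and 2.73 CPM in knockout tumors and 2.92, 2.28, 2.80, 1.64 and 2.77 CPM in controls, with a log2 fold change of -0.15. Its copies, *Rps27rt* included, hold 98.9% of the family's counts, so the ratio compares small numbers of reads.

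*Rpl22*, which encodes a 60S protein that also binds messenger RNAs, had 61.6, 74.4 and 89.4 CPM in PyMT *Pcbp1*–/– tumors and 96.7, 77.3, 74.2, 79.9 and 66.3 CPM in controls. *Rpl22l1* had 14.1, 14.8 and 18.8 CPM in knockout tumors and 12.7, 17.7, 11.0, 10.4 and 15.3 CPM in controls. The ranges overlapped in both genes, and the log2 fold changes were -0.04 and 0.20. *Rpl36al* had 41.6, 54.4 and 57.4 CPM in knockout tumors and 48.2, 55.3, 42.0, 50.6 and 46.9 CPM in controls, and *Rpl36a* had 2.24, 3.06 and 3.83 CPM in knockout tumors, with log2 fold changes of 0.11 and -0.13. *Rpl7* and *Rpl7l1* had 0.08 and 0.09.

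In the other pairs 1 gene could not be tested, had no entry or is annotated as a pseudogene. *Rpl39* had a log2 fold change of 0.11 and a level of 52.2, 64.2 and 73.8 CPM in knockout tumors, while *Rpl39l*, a paralog best known from testis, reached at most 0.213 CPM, no more than a count of 0 allows. *Rps29*, a 40S gene that also failed the filter, had between 0.089 and 0.850 CPM in knockout tumors and 0.640, 1.04, 0.438, 0.456 and 0.268 CPM in controls. The groups overlapped, and 92.9% of the counts of its family lay on a matched pseudogene. *Rpl3*, *Rpl10* and *Rps4x*, whose paralogs have no entry or are annotated as a pseudogene, had log2 fold changes of 0.08, -0.10 and 0.03. The pseudogene *Rps4l*, paralog of *Rps4x*, was tested among the matched copies and had -0.58 (edgeR adjusted p = 0.395).

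Genes that work with the ribosomal proteins were read the same way, from lists. *Fau*, which encodes a ribosomal protein fused to a relative of ubiquitin, had a log2 fold change of 0.22 (edgeR adjusted p = 0.533). *Gnb2l1*, the older symbol of *Rack1*, which encodes a scaffold protein on the 40S subunit, had -0.12 (edgeR adjusted p = 0.779). Neither had an unadjusted p under 0.05 in edgeR, and neither passed the adjusted threshold in edgeR, DESeq2, limma-voom or limma on log2(CPM + 1).

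Counts called in these lists are given beside the shares over all genes, which were 18.7% at an unadjusted p under 0.05 in edgeR, 6.34% with DESeq2, and 11.2% with limma-voom in both directions or 5.03% higher. Of 61 ribosome biogenesis genes edgeR called 0, with 5 (8.197%) at an unadjusted p under 0.05. DESeq2 called 1 (1.64%), lower, and limma-voom 2 (3.28%), both higher. Of 19 tested genes for RNA polymerase I and its factors, edgeR called 0 with 2 (10.5%) at an unadjusted p under 0.05, DESeq2 called 0 and limma-voom 1, higher.

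The genes that signal to ribosomal protein messengers include mTOR and LARP1. Of 20 tested, edgeR called 0 with 3 at an unadjusted p under 0.05, DESeq2 called 1, higher, and limma-voom 1 lower and 1 higher. Of 76 tested mitochondrial ribosomal protein genes, edgeR called 0 with 12 (15.8%) at an unadjusted p under 0.05, 10 of them higher, DESeq2 called 0 and limma-voom 5 (6.58%), all higher. Structural RNA genes are counted here as single genes, not as the summed share above. Of 73 tested, edgeR called 0 with 6 (8.22%) at an unadjusted p under 0.05, DESeq2 called 1, lower, and limma-voom 1 lower and 2 higher. Limma on log2(CPM + 1) called 0 in each of these lists (all genes: 2.21%).

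Copies weighed less in these lists. Matched pseudogenes held 4.74% of the counts of RNA polymerase I genes with their copies, 12.3% for the signalling genes, 16.3% for mitochondrial ribosomal proteins and 21.4% for biogenesis genes. For 19 genes listed for the pyrimidine tract, most but not all of them translation factors, the share was 57.9%.

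Among these 19 genes edgeR called 1, *Eif4b*, higher in the knockout, and 5 (26.3%, all genes: 18.7%) had an unadjusted p under 0.05. DESeq2 and limma on log2(CPM + 1) also called *Eif4b* alone. Limma-voom called 4, *Eif4b*, *Eif2s3x*, *Btf3* and *Hnrnpa1*, all higher, which is 21.1% against 5.03% of all genes called higher by that tool. Not all of these 4 are translation factors, *Hnrnpa1* for example, and whether the share differs from that of all genes was not tested. *Eif4b* encodes a factor that stimulates the helicase eIF4A and is phosphorylated by S6 kinase (chr15:102073773-102097173, GRCm38, plus strand). Its level was 289, 296 and 366 CPM in PyMT *Pcbp1*–/– tumors and 258, 230, 207, 237 and 228 CPM in controls, higher in 6 of 6 knockout tumors than in every control. The log2 fold change was 0.41 (SE 0.08, edgeR adjusted p = 0.0281). The adjusted p was 0.0656 without replicate 3 and 0.0541 without replicate 4 of PyMT *Pcbp1*–/–, and 0.0545, 0.0759 and 0.0782 without replicates 1, 3 and 4 of PyMT *Pcbp1*+/+. Over the 22 alternatives it ranged from 4.34e-05 to 0.0831 and was under 0.05 in 16.

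The start of the transcript is a feature the member rule did not use. Reference promoter entries cover 72 starts of 61 of the 80 genes. At 12 of these starts (16.7%) the first base is C and the next 4 are C or T, against 2.51% of all 32851 starts. Allowing 2 bases on either side, the shares were 29.2% and 8.96%. No match says only that the annotated start does not hold these letters.

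Windows of 30 bases, 10 before the annotated start and 20 from it, are given on the gene's strand for 5 described genes with such a start, because a short shift of the start decides whether the tract is found. Capitals mark the C at the start and the unbroken run of pyrimidines after it, on the GRCm38.p6 assembly. *Rpl15* (chr14:18270967-18270996, minus strand) has the longest run, of 13 bases, and *Rps10* (chr17:27635225-27635254, minus strand) has 10.
Rpl15: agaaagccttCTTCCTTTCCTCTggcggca
Rps10: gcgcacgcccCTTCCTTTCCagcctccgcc

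*Rpl28* (chr7:4792955-4792984, plus strand) and *Rps15a* (chr7:118116128-118116157, minus strand) have runs of 8 bases, and *Rps27* (chr3:90213629-90213658, minus strand) has 7, all on GRCm38.p6 with capitals as above. The fold changes of these genes had different signs, at 0.42 for *Rpl28* and -0.44 for *Rps15a*, and neither passed the threshold in edgeR.
Rpl28: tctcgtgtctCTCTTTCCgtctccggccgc
Rps15a: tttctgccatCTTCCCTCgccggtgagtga
Rps27: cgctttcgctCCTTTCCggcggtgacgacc

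Introns of ribosomal protein genes often hold small nucleolar RNAs, which guide modification of ribosomal RNA. Of 21 snoRNA genes in the tables, 1 lay inside a member on the same strand, Gm26448 in *Rpsa*. It had 43.2, 55.7 and 104 CPM in PyMT *Pcbp1*–/– tumors and 46.7, 61.0, 40.6, 51.0 and 46.1 CPM in controls, with overlap, and a log2 fold change of 0.40 (edgeR adjusted p = 0.328).

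Cell type markers were summed in each tumor. Luminal epithelial markers, led by *Kit*, summed to 1665, 2650 and 2874 CPM in PyMT *Pcbp1*–/– tumors and 3381, 1900, 2365, 3121 and 2326 CPM in controls. All 14 had counts. Milk protein genes, led by *Csn3*, summed to 231, 602 and 1208 CPM in knockout tumors and 2127, 391, 1232, 1928 and 1687 CPM in controls, and control 2 had the lowest sum of its group. Markers of dividing cells, led by *Mki67*, summed to 430, 623 and 673 CPM in knockout tumors and 322, 501, 407, 504 and 440 CPM in controls, with knockout replicate 1 inside the control range. Control 2, the tumor with the highest ribosomal protein sum, thus had the lowest luminal and milk sums of its group, and its sum for dividing cells lay within 3 CPM of the highest of its group.

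Summed markers had medians in knockout and control tumors of 379 and 329 CPM for basal cells, 668 and 541 for fibroblasts, 62.7 and 81.3 for endothelium, and 437 and 307 for macrophages. The medians were 4.57 and 5.52 CPM for T cells, 0.756 and 1.00 for B cells, 9.71 and 14.1 for adipocytes, and 2.59 and 1.18 for skeletal muscle. Basal sums overlapped, from 130 to 443 CPM in knockout tumors and from 103 to 916 CPM in controls. The median log2 fold change of the 8 basal markers was -0.12, opposite in direction to the medians of their sums. The same held for the 14 luminal markers, with -0.05 against median sums of 2650 CPM in knockout and 2365 CPM in control tumors. Of the markers, 6 of 7 for T cells and 2 of 5 for B cells have an entry, and no marker with an entry was at 0 in all tumors. Of 71 marker genes tested over the 11 lists, edgeR called 0, with 9 (12.7%, all genes: 18.7%) at an unadjusted p under 0.05, of which 5 were among 10 markers of dividing cells. DESeq2 called 4 (5.63%, all genes: 6.34%), all higher, namely *Mki67*, *Ccnb1* and *Cdk1* of dividing cells and *Lyz2* of macrophages. Limma-voom called 9 (12.7%, all genes: 11.2%). Of these, 7 were higher, 6 of them among the 10 markers of dividing cells, and the milk protein genes *Csn3* and *Lalba* were lower. Limma on log2(CPM + 1) called 1, *Lyz2*. Which genes these tools called was seen before they were named. The part of cell composition in the levels of ribosomal protein genes was not tested.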

How the data were processed

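RNA was extracted with Trizol, and poly(A)-enriched stranded libraries were sequenced paired-end. The authors checked reads with FastQC, aligned them to GRCm38 with Bowtie2 and used Partek Flow. The authors deposited estimated counts (expected counts) per gene and CPM, each count divided by its column sum, to within 0.166 CPM for the ribosomal protein genes, 13.4 CPM for other genes and 254 CPM (0.146%) for the gene with the most counts. The counting method and annotation release are not given in the sources used here. Between 17.9% and 19.6% of values are not whole, and estimated counts were rounded. Deposited stop positions were taken 1 base earlier.

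EdgeR 4.0.16 (R 4.3.3) with TMM factors, filterByExpr and the quasi-likelihood test compared the genotypes over 19232 genes with Benjamini-Hochberg adjustment. The approach was tested on simulated data, drawn with the spread that edgeR estimated and with changes larger than those of the ribosomal protein genes. DESeq2 made more false calls there than the other tools, but that setting cannot rank the tools on these tumors. How certain genes called by DESeq2 alone are was not tested. Alternatives were DESeq2 1.42.0, limma 3.58.1 (voom with sample quality weights, and log2(CPM + 1)), library size only, upper-quartile factors, no filter, at least 1 CPM in at least 5 tumors, protein-coding genes only, the replicate number as a block, each tumor left out, and copies named -ps added to the gene. Paralog ratios used a pseudocount of 1. Adding sequence-matched pseudogenes, and leaving out the gene with the most counts, were chosen after seeing the data.

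Pseudogene transcripts of GENCODE M39, matched by Ensembl ID (99.1% of 4004), were aligned with blastn 2.17.0, and exon lengths came from the same release. Transcript starts came from RefSeq on GRCm38.p6. Python 3.11.15 and scipy 1.17.1 were used. Genes named in the text were the 5 largest and 5 smallest fold changes, the 5 highest levels per length, genes that failed the filter, paralog pairs, the 5 largest shares on named copies, companion genes past the threshold, and *Fau* and *Rack1* (*Gnb2l1*) always. *Rps3a3*, *Rps3a1*, RP24-447D19.3 and any other gene named outside this rule were chosen after their values were seen. The members and lists were chosen with earlier results of these data known.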

Additional observations from a re-analysis of the deposited data

Results flagged for a closer look

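In 118 groups of values tested, 8 had 1 tumor far from the rest of its group, and chance does this in about 1 in 20 groups. *Rplp0* was 199 CPM in PyMT *Pcbp1*+/+ replicate 2, against 146 to 161 in the other controls. *Eif4b* was 366 CPM in PyMT *Pcbp1*–/– replicate 5, against 289 to 310. Structural RNA genes took 24.3% of counts in PyMT *Pcbp1*–/– replicate 6, against 13.5% to 16.9%. The log2 ratio of *Rpl22l1* to *Rpl22* was -1.71 in PyMT *Pcbp1*–/– replicate 2, against -2.62 to -2.29. Summed B cell markers were 2.09 CPM in PyMT *Pcbp1*–/– replicate 6, against 0.534 to 1.03. Adipocyte markers were 93.6 CPM in PyMT *Pcbp1*+/+ replicate 3, against 4.84 to 17.2. Skeletal muscle markers were 30.5 CPM in PyMT *Pcbp1*+/+ replicate 5, against 0.474 to 2.01. Markers of dividing cells were 430 CPM in PyMT *Pcbp1*–/– replicate 1, against 596 to 673.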

How the results depend on the processing

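*Pcbp1* was lower at an adjusted p under 0.05 under all alternatives, with a log2 fold change of -3.58 to -3.34 when 1 tumor was left out. The number of ribosomal protein genes called higher was 1 with DESeq2, 8 with limma-voom and 0 to 1 with 1 tumor left out, and no alternative called one lower. All genes called lower numbered 730 with DESeq2, 1190 with limma-voom, 118 with the replicate block and 144 to 389 with 1 tumor left out, against 319. All genes called higher numbered 486, 968, 42 and 41 to 187 in that order, against 117. Matching copies by sequence gave a share of 84.5%, against 66.5% by name. The causes of these differences were not tested, except that leaving out a tumor lowers the number of samples.

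Adding matched pseudogenes turned the log2 fold changes of *Rpl37*, *Rps7*, *Rps15a*, *Rpl11*, *Rpl9*, *Rpl22*, *Rpl10*, *Rpl36a* and *Rps10* to 0.14, 0.20, 0.017, 0.11, 0.015, 0.071, 0.14, 0.21 and 0.13. This alternative was chosen after seeing the data. Adding copies named -ps gave 0.018 for *Rps15a*, 0.0027 for *Rpl9*, 0.013 for *Rpl22*, 0.13 for *Rpl10*, 0.20 for *Rpl36a* and 0.13 for *Rps10*. Limma-voom gave 0.021 for *Rpl10*, 0.019 for *Rpl36a*, 0.20 for *Rps10* and 0.13 for *Gnb2l1*. The replicate block gave -0.015 for *Rps4x*. With 1 tumor left out, *Rpl22* ran from -0.098 to 0.024, *Rps4x* from -0.016 to 0.095, *Gnb2l1* from -0.22 to 0.074, and the log2 ratio difference of *Rpl7l1* to *Rpl7* from -0.050 to 0.10. The cause was not tested.

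The replicate block uses the 10 tumors numbered 1 to 5 in both groups and gave a median log2 fold change of 0.03 for the ribosomal protein genes. Tumors with the same number had correlations of -0.144 to 0.292 after group means were removed, and 2 of 5 controls were most like the tumor of their own number. So few values do not show a pairing by number and cannot exclude one. *Eif4b* had an adjusted p of 0.0831 and *Rps3a3* of 0.0729 with the block. Limma-voom gave replicate 2 of PyMT *Pcbp1*+/+ a weight of 0.348, the lowest. Pseudogene matches rest on a reference of another build, and reads were not available to assign anew. Counts per tumor limit precision for genes with few counts of their own.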
